A study of Mus musculus with 13 samples.

Results

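The cytosolic ribosomal protein genes were taken as every non-control probe whose gene name in the raw array files was that of a small subunit gene (Rps and a number), a large subunit gene (Rpl and a number), the P stalk genes Rplp0 to Rplp2, or Rpsa. That rule found 130 of 41174 probes, printed as 139 spots, for 78 of 28787 gene names. Of these genes 77 passed the filter on dim probes and were tested among 18275 genes. The one left out was Rpl3l, whose probe was well above background on 0 of 12 arrays. RefSeq matched 109 of the 130 probes by accession and gave 107 of them the same symbol, and named the other 2, Rps3a, as Rps3a1.

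Ribosomal proteins coat and stabilise the ribosomal RNAs of the small and the large ribosomal subunit, and every translating cell makes them in near-equal numbers. Their mRNAs are among the most abundant in growing cells and typically start with a C followed by a run of pyrimidines, the 5' terminal oligopyrimidine tract, through which mTOR signalling sets their translation. Several have further roles: Rpl5 and Rpl11 bind the p53 regulator Mdm2 when ribosome assembly is disturbed, Rps6 is phosphorylated by S6 kinase, and Rpsa is also known as a laminin receptor.

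RNA came from mammary organoids, multicellular epithelial fragments freed by collagenase and trypsin and cleared of single cells by centrifugation. Tumor organoids were made from the largest tumor of PyMT mice, whose mammary epithelium carries the polyoma middle T oncogene, taken at 12 to 16 weeks as poorly differentiated carcinomas. Normal organoids came from wild-type FVB mice, of an age the labels do not give. Both were grown in 3D for 4 days in medium with 2.5 nM FGF2, a fibroblast growth factor, and insulin-transferrin supplement. The groups were tumor organoids in collagen I from rat tail, 3 mg/ml (mice A, B and C), tumor organoids in Matrigel (A, B and C), which is a basement membrane extract rich in laminin, normal organoids in collagen I (A, B and C), and normal organoids in Matrigel (A, B and D). The study asked how gene expression depends on the matrix in the 2 tissues. A letter marks the same mouse within a tissue, and tumor and normal mice are different animals. Collagen I and Matrigel were compared within each tissue, and tumor with normal organoids within each gel.

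The start regions of 7 members called on the authors' values are shown here, so that the sequence at the start can be set beside the pyrimidine tract these mRNAs are known for. Each line runs from 60 bases before to 20 bases after the RefSeq start on GRCm38.p6, with capitals on the longest run of C and T that reaches within 5 bases of the start. Rplp0, Rpl24, Rps15, Rpsa and Rpl31 are 5 of the 6 genes called lower in tumor collagen than in tumor Matrigel on both scales described below, and the other, Rpl10a, has several starts. Rpl27a and Rps9 were called lower in tumor than in normal organoids in collagen I, on the authors' values alone. The marked runs are of 4, 2, 3, 3 and 7 bases in the first 5 genes and of 20 and 9 in Rpl27a and Rps9. The RefSeq starts were not checked against measured mRNA ends, so that a short run here does not show that an mRNA lacks the tract. A link between run length and the calls was not tested. The windows are chr5:115559407-115559486 (plus strand) for Rplp0, chr16:55966215-55966294 (plus) for Rpl24, chr10:80292371-80292450 (plus) for Rps15, chr9:120127706-120127785 (plus) for Rpsa, chr1:39367791-39367870 (plus) for Rpl31, chr7:109519135-109519214 (plus) for Rpl27a and chr7:3703981-3704060 (plus) for Rps9.
Rplp0: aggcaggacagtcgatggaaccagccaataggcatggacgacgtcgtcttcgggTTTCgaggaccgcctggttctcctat
Rpl24: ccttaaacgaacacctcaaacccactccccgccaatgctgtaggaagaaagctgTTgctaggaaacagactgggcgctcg
Rps15: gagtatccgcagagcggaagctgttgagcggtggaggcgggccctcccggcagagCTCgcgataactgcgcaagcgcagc
Rpsa: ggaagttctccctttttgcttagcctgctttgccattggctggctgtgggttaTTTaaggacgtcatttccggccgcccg
Rpl31: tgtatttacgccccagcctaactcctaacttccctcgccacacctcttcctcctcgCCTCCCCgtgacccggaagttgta
Rpl27a: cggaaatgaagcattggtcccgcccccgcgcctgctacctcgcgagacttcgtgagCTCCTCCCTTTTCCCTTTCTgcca
Rps9: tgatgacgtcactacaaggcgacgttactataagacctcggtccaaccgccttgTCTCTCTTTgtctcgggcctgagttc

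RefSeq promoters were at hand for 58 of the 78 member genes, as 69 regions of 250 bases before to 50 after the start, against 32851 regions of the same length for all genes. A run of 6 or more pyrimidines within 5 bases of the start was present in 29 member regions (42%), against 21% of all regions. On either strand, CCGGAAG, the core of the ETS family sites bound by Gabpa, was present in 36.2% of member regions and 8.86% of all. AAGATGG, the core of Yy1 sites, was present in 15.9% and 6.34%, and GGGCGG, the core of Sp1 sites, in 58% and 35.7%. CACGTG, the E-box bound by Myc, was present in 8.7% and 7.15%, and TATAAA in 8.7% and 13.6%. A match of CCGGAAG and one of AAGATGG can share bases, as can a match on the other strand and a pyrimidine run, and several starts of one gene share bases.

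The arrays were not equally bright, and the ribosomal protein probes did not follow the rest of the array. The processed signal had a 75th percentile of 737 ± 65.4 (SD, n = 3, as for all values in this paragraph) on tumor collagen arrays, 463 ± 96.3 on tumor Matrigel arrays, 1080 ± 126 on normal collagen arrays and 956 ± 247 on normal Matrigel arrays. The median signal of the member spots was 67698 ± 6420 in tumor collagen, 79400 ± 7204 in tumor Matrigel, 86199 ± 14264 in normal collagen and 74979 ± 12915 in normal Matrigel. Member spots held 11.8 ± 0.766% of all signal in tumor collagen, 15.4 ± 0.257% in tumor Matrigel, 11.6 ± 0.617% in normal collagen and 12.3 ± 0.746% in normal Matrigel. The shares of 11.5, 11.2 and 12.7% in tumor collagen did not overlap the 15.2, 15.3 and 15.7% in tumor Matrigel. That difference had an exact two-sided permutation p of 0.1, the smallest that 3 arrays against 3 allow, and so had that between tumor and normal organoids in Matrigel. The share also differed between the labelled batches: normal Matrigel mouse B, the same RNA by the labels, read 13.7% on the batch 1 array and 11.4% on the batch 2 array, and mouse A read 14.2% and 12.8%. In log2 signal minus the array's 75th percentile, the members' median for mouse B was 0.52 higher on batch 1, against 0.05 over all genes. For that mouse 76 of 77 members were higher on the batch 1 array. Mouse A gave 0.11 against 0.06, with 52 of 77 members higher. Batch 1 arrays entered no comparison below on the processed signals, except where they are said to be averaged in. The authors' deposited values for normal Matrigel mouse B average its batch 1 and batch 2 arrays. On each array 103 to 107 of the 139 member spots exceeded the range of the main scan and were read from a second scan at low gain, 0 were saturated and 0 were flagged as outliers.

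Because of this, the members are given on 2 scales. The first is the log2 processed signal minus the array's 75th percentile (75th percentile scale). The second is the authors' deposited log2 values, whose 13 columns all share the same highest value and have medians of 5.92 to 5.98. A gene is called higher or lower where its adjusted p in the limma fit was under 0.05, and differences carry the standard error of that fit after ±. Where members with an unadjusted p under 0.05 are counted, the share of all genes at that threshold was not computed. With total RNA of mixed cells, more RNA per cell and more cells of a type that is rich in these RNAs cannot be told apart.

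On the 75th percentile scale the members' median level was higher on each of the 3 tumor Matrigel arrays than on any other array. It was 7.26, 7.29 and 7.43 in tumor collagen, 8.15, 8.43 and 8.21 in tumor Matrigel, 7.35, 7.03 and 7.13 in normal collagen, and 7.46, 7.02 and 7.27 in normal Matrigel. Only tumor Matrigel stood apart, and the other 3 groups overlapped. The authors' values gave medians of 17.04, 16.81 and 17.12 in tumor collagen, 17.17, 16.96 and 17.16 in tumor Matrigel, 17.16, 17.16 and 17.17 in normal collagen, and 17.04, 17.01 and 17.27 in normal Matrigel. There the groups overlapped, except that the 3 tumor collagen medians lay below the 3 of normal collagen. On the 75th percentile scale the small subunit median was 7.31 to 7.5 in tumor collagen against 8.22 to 8.48 in tumor Matrigel, and the large subunit median was 7.23 to 7.33 against 8.1 to 8.29.

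**Figure D1:**
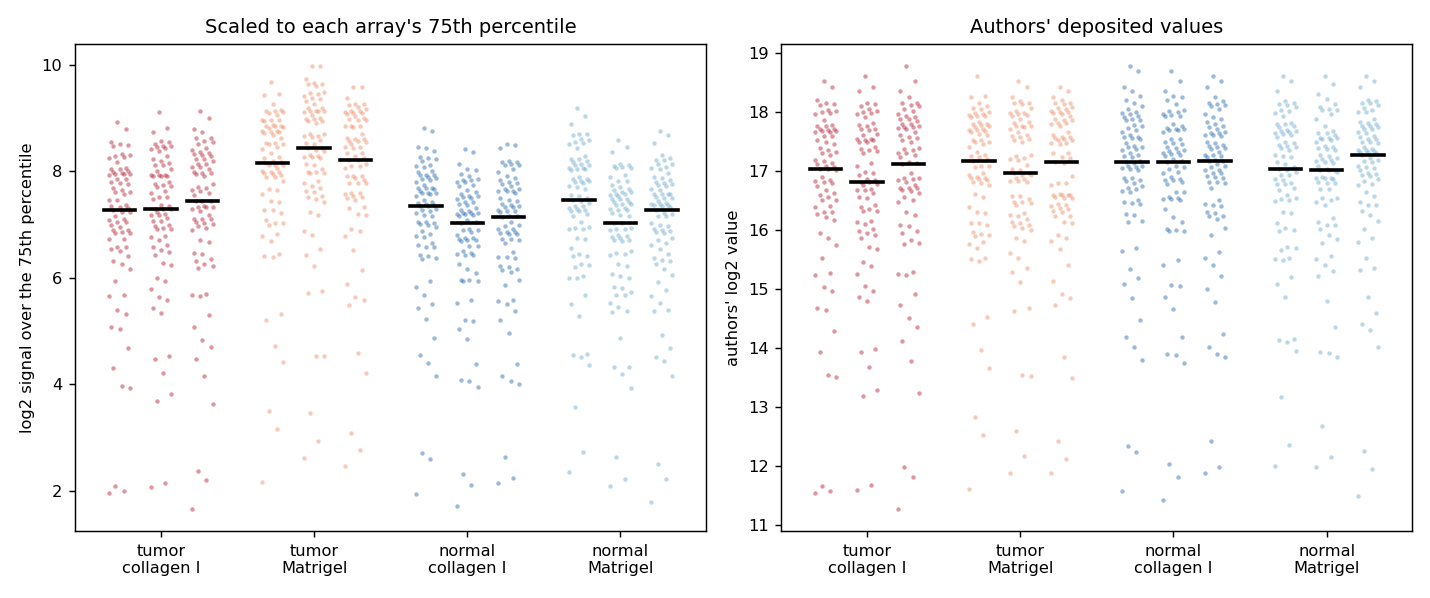
Levels of the 77 tested ribosomal protein genes on each of the 12 arrays (1 point per gene, black bar at the median), on the 75th percentile scale (left) and as the authors' log2 values (right). On the left the 3 tumor Matrigel medians, 8.15 to 8.43, lie above all others, and on the right all 12 medians lie between 16.81 and 17.27.

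In tumor organoids, ribosomal protein genes were lower in collagen I than in Matrigel on the 75th percentile scale, in nearly all members and by similar amounts. Of 77 genes, 73 were called lower and 0 higher, where 12.1% of all genes were called lower and 15.8% higher. The members' median difference was -0.9 (range -1.27 to -0.5), against -0.04 over all genes. By the authors' values 6 were called lower and 0 higher, where 8.08% of all genes were called lower and 13% higher, and the median was -0.11 (range -0.66 to 0.26). All 6 were also called lower on the 75th percentile scale: Rpl10a, Rpl24, Rpl31, Rplp0, Rps15 and Rpsa. Tested on their own on the authors' values, the second probes of Rpl31 (-0.21 ± 0.15, adjusted p = 0.335) and Rpsa (-0.57 ± 0.25, adjusted p = 0.123) were not called. The second probe of Rpl24 was (-0.65 ± 0.15, adjusted p = 0.0145). The groups did not overlap, collagen below Matrigel, for 74 members on the 75th percentile scale (18.6% of all genes) and for 21 on the authors' values (16.4% of all genes).

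Of the probes under the rule that stand for a gene, the largest difference was that of Rplp0, the scaffold protein of the P stalk that recruits translation factors. It read 5.68, 5.58 and 5.69 in tumor collagen against 6.68, 7.18 and 6.91 in tumor Matrigel on the 75th percentile scale. The authors' values for the same probe were 15.27, 14.97 and 15.29 against 15.69, 15.82 and 15.91. Each collagen array lay below each Matrigel array on both scales, with differences of -1.27 ± 0.18 (adjusted p = 0.00193) and -0.63 ± 0.15 (adjusted p = 0.0171). The 2 brighter probes of this gene, named Arbp, fall outside the rule and gave -0.68 ± 0.22 and -1.1 ± 0.19 on the 75th percentile scale. Neither was called on the authors' values (adjusted p = 0.714 and 0.137). Of the partners of Rplp0 in the stalk, Rplp1 differed by -0.77 ± 0.21 (adjusted p = 0.0199) on the 75th percentile scale and 0.05 ± 0.12 (adjusted p = 0.813) on the authors' values. Rplp2 differed by -0.8 ± 0.2 (adjusted p = 0.0155) and 0 ± 0.12 (adjusted p = 1).

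Large differences were also those of Rpl10, which joins the large subunit late in its maturation (-1.25 ± 0.16), Rpl35a (-1.23 ± 0.27) and Rpl28 (-1.19 ± 0.17), with adjusted p of 0.00153, 0.00901 and 0.00199. On the authors' values these were -0.41 ± 0.15, -0.61 ± 0.23 and -0.37 ± 0.14, and none passed (adjusted p 0.0733 to 0.0885). One array weighed on Rpl35a, which read 5.65, 5.93 and 4.82 in tumor collagen against 6.79, 6.8 and 6.52 in tumor Matrigel.

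Among small subunit members, Rpsa read 5.39, 5.64 and 5.65 in tumor collagen against 6.39, 6.87 and 6.87 in tumor Matrigel. The authors' values were 15.03, 15.05 and 15.24 against 15.48, 15.61 and 15.86, so that the groups did not overlap on either scale. Its difference was -1.15 ± 0.18 (adjusted p = 0.00261), and -0.55 ± 0.15 (adjusted p = 0.0312) on the authors' values. The dimmer Rpsa probe, tested on its own, gave -0.57 on either scale and was not called (adjusted p = 0.132 and 0.123). Rps15 read 4.31, 4.48 and 4.48 in tumor collagen against 5.31, 5.75 and 5.48 in tumor Matrigel, a difference of -1.09 ± 0.22 (adjusted p = 0.00689). For the authors' values it was -0.65 ± 0.16 (adjusted p = 0.0199). Rps27a, which is made as a fusion with ubiquitin, was called on the first scale only, at -0.64 ± 0.21 (adjusted p = 0.046) and 0.19 ± 0.16 (adjusted p = 0.428). By subunit, 31 of 32 small subunit genes, 39 of 42 large subunit genes and 3 of 3 stalk genes were called lower on the 75th percentile scale, and 2, 3 and 1 on the authors' values.

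The 4 members not called on the 75th percentile scale were Rpl14 (-0.51 ± 0.2, adjusted p = 0.0816), Rpl21 (-0.56 ± 0.51, adjusted p = 0.439), Rpl30 (-0.62 ± 0.31, adjusted p = 0.157) and Rps27l (-0.51 ± 0.25, adjusted p = 0.152). Within each mouse, the members' median collagen minus Matrigel difference was -0.87, -1.07 and -0.75 in tumor mice A, B and C, and above 0 for 0, 1 and 1 of the 77 genes. With the authors' values these medians were -0.12, -0.14 and -0.04. The one slide that held both gels in tumor organoids gave -0.89 and, on the authors' values, -0.13. With slide as a fixed term, which leaves 2 residual degrees of freedom, 12 members were called lower (3.88% of all genes), with a median of -0.83. When the fit held only the 6 tumor arrays, 46 were called lower (4.01% of all genes).

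The size and even the sign of the shift followed the scaling. Scaled to spike-in control RNA, 64 members were called higher in tumor collagen and 0 lower, where 88.7% of all genes were called higher and 0.142% lower, with a median of 0.81, against 1.67 over all genes. With no scaling 0 were called and 3 had an unadjusted p under 0.05 in limma, where 32.6% of all genes were called higher and 0.947% lower, with a median of -0.21, against 0.64 over all genes. A scaling by 1 constant per array moves members and all genes alike, so that the members' median minus that of all genes is -0.86 for the 75th percentile, the array median, the spike-in controls and no scaling by construction. It was -0.16 with quantile normalization (10 members called lower, where 9.43% of all genes were) and -0.1 on the authors' values, neither of which uses 1 constant per array. Background correction by normexp gave -0.31 (24 called lower, where 4.17% of all genes were).

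**Figure D2:**
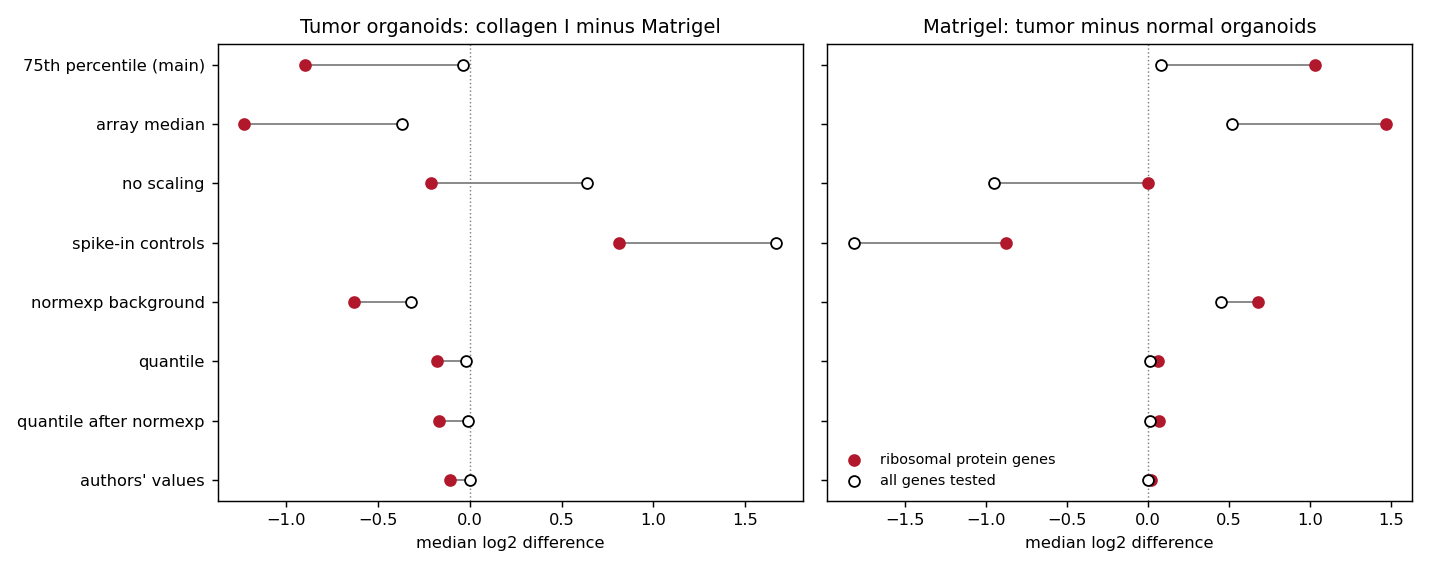
Median log2 difference of the ribosomal protein genes (red) and of all genes tested (open) under 8 scalings, for collagen I minus Matrigel in tumor organoids (left) and tumor minus normal in Matrigel (right). The 4 scalings at the top, each a constant per array, move both medians together and leave -0.86 and 0.95 between them, and with the 3 at the bottom the medians are at most 0.16 apart.

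In Matrigel, ribosomal protein genes were higher in tumor than in normal organoids on the 75th percentile scale and differed little on the authors' values. On the first scale 72 of 77 were called higher and 0 lower, where 25.7% of all genes were called higher and 25.9% lower, with a median of 1.03, against 0.08 over all genes. With the authors' values 2 were called higher, Rpl24 and Rps15, and 1 lower, Rpl27a, where 22.7% and 25.3% of all genes were called. The median there was 0.02. This comparison shares the tumor Matrigel arrays with the one above, so that the 2 are not independent.

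The largest differences were in Rpl36 (1.45 ± 0.2), Rps19 (1.42 ± 0.24), Rps10 (1.37 ± 0.2), Rpl24 (1.35 ± 0.19) and Rps15 (1.3 ± 0.22), with adjusted p of 0.000306, 0.00107, 0.00042, 0.000345 and 0.00102. Mutations of RPS19 and RPS10 are known from human Diamond-Blackfan anaemia. Rpl24, a large subunit protein that joins late in the cytoplasm, read 6.41, 6.54 and 6.14 in tumor Matrigel against 5.27, 4.86 and 4.93 in normal Matrigel. Its authors' values were 15.5, 15.36 and 15.4 against 14.87, 14.8 and 14.86, and there the difference was 0.58 ± 0.13 (adjusted p = 0.00536). Rps15 differed by 0.64 ± 0.16 (adjusted p = 0.00862) on the authors' values. For both genes the tumor arrays lay above the normal arrays on either scale. Rpl36, Rps19 and Rps10 gave 0.25 ± 0.13, 0.35 ± 0.23 and 0.25 ± 0.17 on the authors' values, with adjusted p of 0.151 to 0.244.

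The brighter of the 2 Rpl27a probes, which stands for the gene, was not called on the first scale and was called lower on the second. It read 4.42, 4.53 and 4.21 in tumor Matrigel against 4.55, 4.19 and 4.43 in normal Matrigel, a difference of -0.01 ± 0.17 (adjusted p = 0.983). The authors' values were 13.66, 13.53 and 13.48 against 14.14, 13.93 and 14.31, a difference of -0.57 ± 0.15 (adjusted p = 0.0103). The dimmer Rpl27a probe gave 0.33 ± 0.17 (adjusted p = 0.117) there when every probe was tested on its own. The other members not called on the 75th percentile scale were Rpl4, Rpl14, Rpl21 and Rpl30, with adjusted p of 0.111 to 0.431. The slide that held both tissues in Matrigel gave a members' median of 1.29, and -0.11 on the authors' values. Scaled to spike-in RNA, 72 members were called lower in tumor Matrigel, where 86.3% of all genes were, and with no scaling 3 were, where 53.6% of all genes were.

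**Figure D3:**
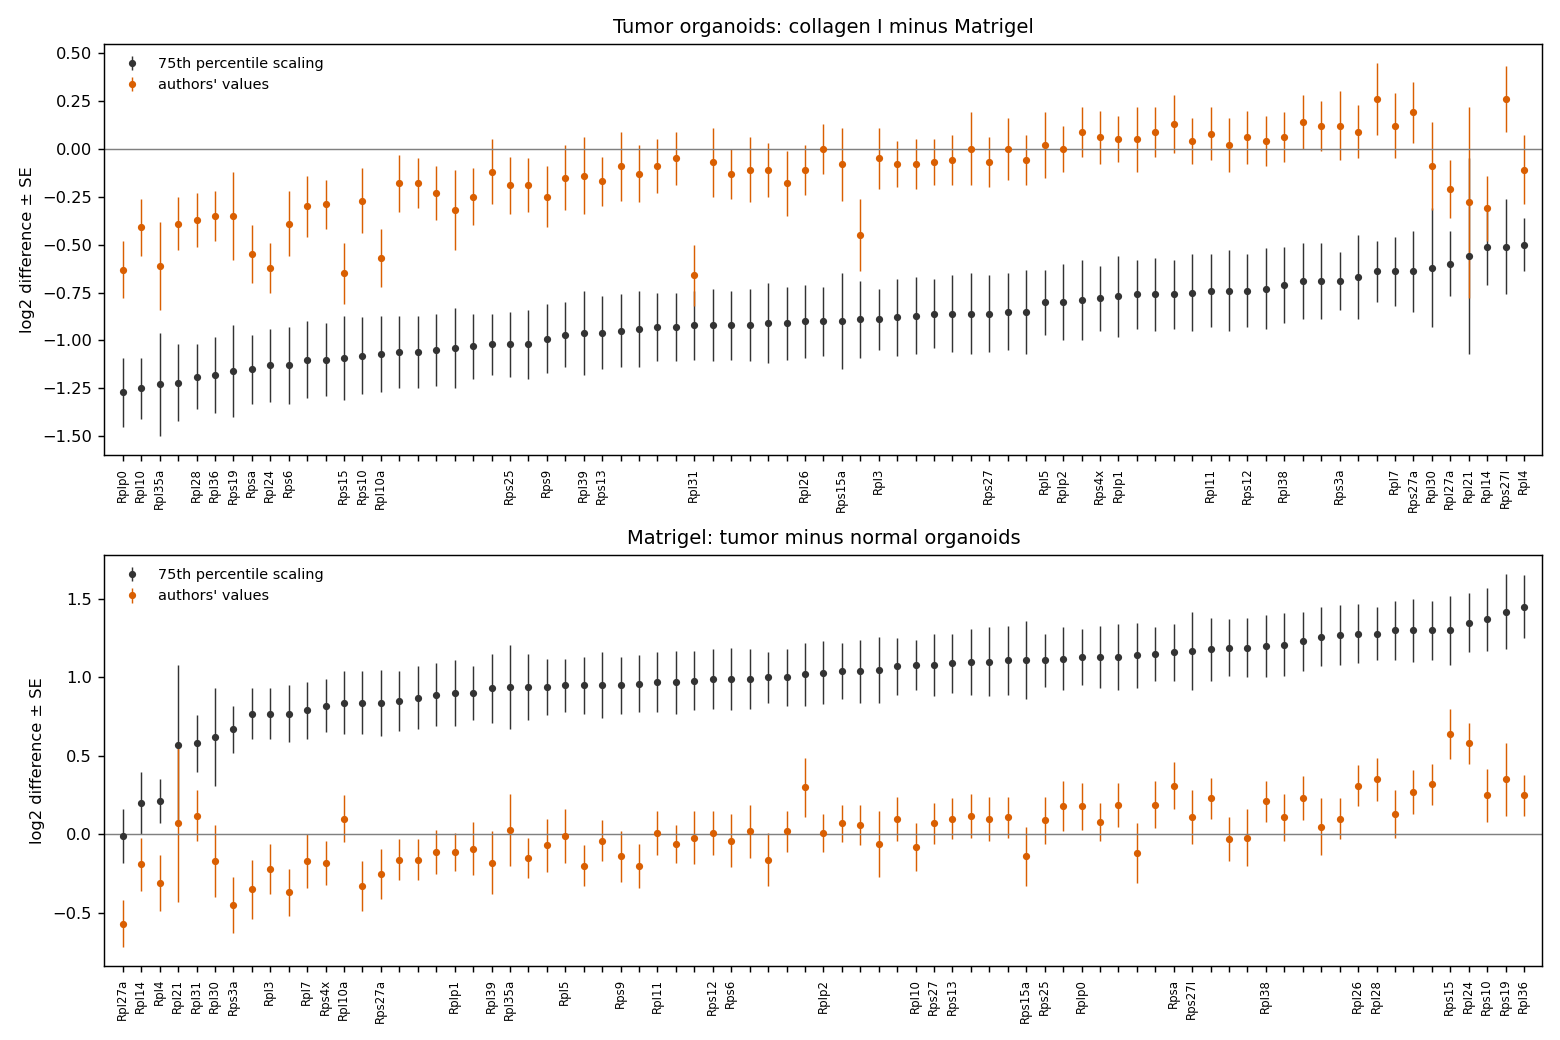
Log2 difference ± SE of each of the 77 genes for collagen I minus Matrigel in tumor organoids (top) and tumor minus normal in Matrigel (bottom), on the 75th percentile scale (dark) and as authors' values (orange), in order of the first, with genes described in the text named on the axis. All 77 dark points lie below 0 at the top and all but Rpl27a above 0 at the bottom, while the orange points lie on both sides of 0 in both panels.

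In normal organoids no ribosomal protein gene was called between the gels on either scale. By limma 0 of 77 were called, and 0 had an unadjusted p under 0.05, on both scales, where 0.0383% of all genes were called higher and 0.00547% lower on the first and 0.0328% and 0.0164% on the authors' values. The members' median was -0.11, and 0.03 on the authors' values. The 3 with the lowest p were the large subunit genes Rpl4 (-0.31 ± 0.14) and Rpl7 (-0.26 ± 0.18) and the stalk gene Rplp1 (-0.34 ± 0.21), with adjusted p of 0.566, 0.749 and 0.705. Mice A and B, which gave both gels, had medians of -0.18 and -0.07, and 0.09 and 0.08 on the authors' values.

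In collagen I the 2 scales gave small differences of opposite sign between tumor and normal organoids. On the 75th percentile scale 0 of 77 were called, with a median of 0.24, where 3.64% of all genes were called higher and 5% lower. By limma 11 had an unadjusted p under 0.05, and the share of all genes at that threshold was not computed. The authors' values had 2 called lower and 0 higher, with a median of -0.12, where 4.94% and 4.09% of all genes were called. Tumor lay above normal in every array for 25 members on the first scale (18.1% of all genes), and below it for 29 on the authors' values (17.9% of all genes). The 2 genes called were Rpl27a (-0.62 ± 0.15, adjusted p = 0.0285) and Rps9 (-0.6 ± 0.16, adjusted p = 0.0426). The dimmer probe of Rpl27a gave 0.07 ± 0.17 (adjusted p = 0.835). Rps9 had authors' values of 15.86, 15.68 and 15.83 in tumor collagen against 16.5, 16.36 and 16.3 in normal collagen, while on the 75th percentile scale it read 6.26, 6.23 and 6.25 against 6.64, 6.25 and 6.21. The lowest p on the 75th percentile scale were those of Rpl38 (0.57 ± 0.2), Rps12 (0.53 ± 0.19) and Rpl26 (0.48 ± 0.19), with adjusted p of 0.103, 0.122 and 0.142. Rpl38 is known in mice for its part in the translation of Hox mRNAs.

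The gel effect was tested for a difference between the tissues, tumor minus normal. On the 75th percentile scale 4 of 77 members were called, all with a lower value in tumor organoids, where 1.3% of all genes were called lower and 1.35% higher. They were Rpl36 (-1.26 ± 0.28, adjusted p = 0.0443), Rplp0 (-1.14 ± 0.25, adjusted p = 0.0469), Rpl28 (-1.07 ± 0.24, adjusted p = 0.0472) and Rpl10 (-1.01 ± 0.23, adjusted p = 0.0494). The 2 Rplp0 probes outside the rule, named Arbp, were not called, at -0.31 ± 0.31 (adjusted p = 0.553) and -0.9 ± 0.27 (adjusted p = 0.0816). Rpl36 read 6.86, 6.92 and 6.93 in tumor collagen against 7.89, 8.27 and 8.09 in tumor Matrigel, and 7.02, 6.5 and 6.64 in normal collagen against 6.93, 6.44 and 6.54 in normal Matrigel. On the authors' values 0 were called and 7 had an unadjusted p under 0.05, and the 4 genes gave -0.49 ± 0.19, -0.59 ± 0.21, -0.5 ± 0.2 and -0.26 ± 0.21, where 0.421% of all genes were called lower and 0.361% higher. On the 75th percentile scale, mouse as a fixed replicate block in limma gave 0 calls among members and 0% among all genes. That fit left 3 residual degrees of freedom, and 46 members had an unadjusted p under 0.05. The share of all genes at the unadjusted threshold was not computed, so the 46 and the 7 are not shown to be particular to the members. Mouse as a random block gave 32 calls (4.38% of all genes). Leaving out single arrays gave 0 to 35 calls, with 35 (4.1% of all genes) without normal Matrigel mouse A. There were 11 (2.25%) without tumor Matrigel mouse A, 1 (1.68%) without tumor Matrigel mouse C and 0 without any other array.

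The shift on the 75th percentile scale was largest and most uniform in the probes that read brightest. Of 127 member probes tested one by one, 92 were read at low gain on all 12 arrays. These had a median difference of -0.9 (range -1.27 to -0.51) between the gels in tumor organoids and of 1.04 (0.53 to 1.54) between the tissues in Matrigel. The 8 probes read at low gain on some arrays had medians of -0.74 (-1.1 to -0.5) and 0.44 (-0.01 to 1.3). The 27 probes read at low gain on no array had medians of -0.23 (-0.98 to 2.12) and -0.27 (-2.06 to 0.95). Across the 127 probes the difference followed the mean signal at Pearson's r = -0.743 (Spearman's rho -0.304) between the gels and r = 0.853 (rho 0.528) between the tissues. The points share their 12 arrays and often their gene, and the correlation is a description. Other bright genes moved the same way: 386 genes outside the rule were read at low gain on all 12 arrays, and of these 161 were called lower and 3 higher in tumor collagen than in tumor Matrigel, with a median of -0.6. Between tissues in Matrigel 287 of them were called higher and 4 lower, with a median of 0.88. Of all genes 12.1% were called lower and 15.8% higher between the gels, and 25.9% lower and 25.7% higher between the tissues. The 70 members read at low gain on all 12 arrays had medians of -0.91 between the gels and 1.05 between the tissues. The part of the scan gain in these differences was not tested.

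Some gene names had probes that went opposite ways, and these probes are shown here because they lie at different places. They share a gene name on the array, and whether each lies within that gene was not checked. Of 38 genes with several tested probes, 4 had probes called in opposite directions by gel in tumor organoids and 6 by tissue in Matrigel. Of all single probes, 17.5% were called higher and 11.6% lower by gel, and 24% and 28.1% by tissue. The share of genes outside the members with opposed probes was not computed, so the count is not shown to be particular to the members. The members with opposed probes were Rpl11, Rpl31, Rpl35a, Rps12, Rps13, Rps15a and Rps6 in all. In each of these but Rpl31 a bright probe followed the other members and a dim probe opposed it in at least 1 of the comparisons. The bright probe of Rpl11 spans chr4:135428407-135428729 on the minus strand (build mm7, as the files give it), 323 bases for a 60-base probe, so that its match is gapped. The dim probe, at chr4:135428479-135428538 on the same strand, lies inside that span, in its gap if the gap is a single one. Exons and introns of that build were not used here.
Rpl11 bright: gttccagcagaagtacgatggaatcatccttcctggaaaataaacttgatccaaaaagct
Rpl11 dim: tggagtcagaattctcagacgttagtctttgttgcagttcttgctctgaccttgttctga

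The bright Rpl11 probe read 7.86, 7.91 and 8.08 in tumor collagen against 8.42, 8.94 and 8.7 in tumor Matrigel. The dim one read 0.15, -0.43 and 0.74 against -2.51, -2.18 and -0.95. The probes of this 1 gene thus ran opposite ways between the same arrays, each without overlap, by -0.74 ± 0.2 (adjusted p = 0.0185) and 2.03 ± 0.54 (adjusted p = 0.0191) when every probe was tested on its own. On the authors' values the bright probe gave 0.08 ± 0.15 (adjusted p = 0.734) and the dim one 1.8 ± 0.51 (adjusted p = 0.0308), so that the rise of the dim probe in collagen held on both scales.

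Rpl35a has 3 tested probes on the plus strand of chromosome 16. The bright one spans chr16:32732018-32733213 and a second spans chr16:32732033-32733233. They share 45 bases with 4 mismatches, G26A, A29C, A33C and T43C, counted from 1 at the first base of the second probe and marked in capitals, and the second was read at low gain on no array. The third, at chr16:32732112-32732171, lies inside the span of both.
Rpl35a bright: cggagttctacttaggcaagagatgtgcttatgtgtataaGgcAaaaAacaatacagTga
Rpl35a mismatched: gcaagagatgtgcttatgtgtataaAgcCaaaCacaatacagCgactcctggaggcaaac
Rpl35a in the gap: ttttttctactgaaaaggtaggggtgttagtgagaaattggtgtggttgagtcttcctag
The mismatched probe followed the bright one, with -0.98 ± 0.25 (adjusted p = 0.0153) against -1.23 ± 0.27 (adjusted p = 0.00843) between the gels in tumor organoids. The probe in the gap was well above background on 3 of 3 tumor collagen arrays and 0 of 3 tumor Matrigel arrays. It was at least 1.16-fold higher in tumor collagen (adjusted p = 0.0109), and at least 1.5-fold lower in tumor Matrigel than in normal Matrigel (adjusted p = 0.00133). By the authors' values it gave 1.14 ± 0.5 (adjusted p = 0.12) and -1.25 ± 0.5 (adjusted p = 0.0584) and was not called. These bounds set the brighter group's mean against the dimmest signal still well above background on each array.

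Rps12 and Rps15a gave opposed probes too, at places that lie apart. The Rps12 probes are at chr10:23538288-23538347 and chr10:23539315-23539374 on the minus strand. Those of Rps15a are at chr7:114037415-114037718 and at chr7:114027381-114027440, both on the minus strand.
Rps12 bright: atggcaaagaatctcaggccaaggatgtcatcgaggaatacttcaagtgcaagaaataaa
Rps12 dim: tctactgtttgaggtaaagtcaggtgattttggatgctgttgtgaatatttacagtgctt
Rps15a bright: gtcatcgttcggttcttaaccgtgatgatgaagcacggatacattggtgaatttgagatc
Rps15a dim: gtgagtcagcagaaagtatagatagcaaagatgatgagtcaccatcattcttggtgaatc
The dim Rps12 probe read -0.24, -0.16 and -0.09 in tumor collagen against -2.41, -2.57 and -0.69 in tumor Matrigel, a difference of 1.73 ± 0.44 (adjusted p = 0.0161), and 1.51 ± 0.41 (adjusted p = 0.0259) on the authors' values. The bright one gave -0.74 ± 0.19 (adjusted p = 0.017) and 0.06 ± 0.14 (adjusted p = 0.794). The dim Rps15a probe was well above background on 0 of 3 tumor Matrigel arrays and on all 9 others. It was at least 2.02-fold higher in tumor collagen than in tumor Matrigel (adjusted p = 0.00245) and at least 1.94-fold lower in tumor than in normal Matrigel (adjusted p = 0.000697). It was called in both on the authors' values too, at 1.66 ± 0.29 (adjusted p = 0.00602) and -1.46 ± 0.29 (adjusted p = 0.00285).

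The 18 pairs each held, under 1 of 16 gene names, a probe read at low gain on every array and one never read so. The dim probe was called higher in tumor collagen in 4 pairs and lower in 3, where 17.5% of all probes were called higher and 11.6% lower. Between tissues in Matrigel it was called higher in tumor organoids in 2 and lower in 5, where 24% and 28.1% of all probes were called. The probes called the same way as their bright partner were those of Rpl35a with mismatches, Rps19 and, between the gels only, Rps25. In Rpl31 neither probe was read at low gain: one gave 0.58 ± 0.19 (adjusted p = 0.0236) and the other -0.57 ± 0.17 (adjusted p = 0.0179) for tumor minus normal in Matrigel. On the authors' values the latter was called lower in tumor organoids in Matrigel (-0.79 ± 0.15, adjusted p = 0.00223) and in collagen I (-0.76 ± 0.15, adjusted p = 0.0117). The former was called in neither there (adjusted p = 0.552 and 0.155). With the mean over a gene's probes in place of its brightest, 60 members were called lower and 1 higher between the gels in tumor organoids, where 11.7% and 17.2% of all genes were called.

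**Figure D4:**
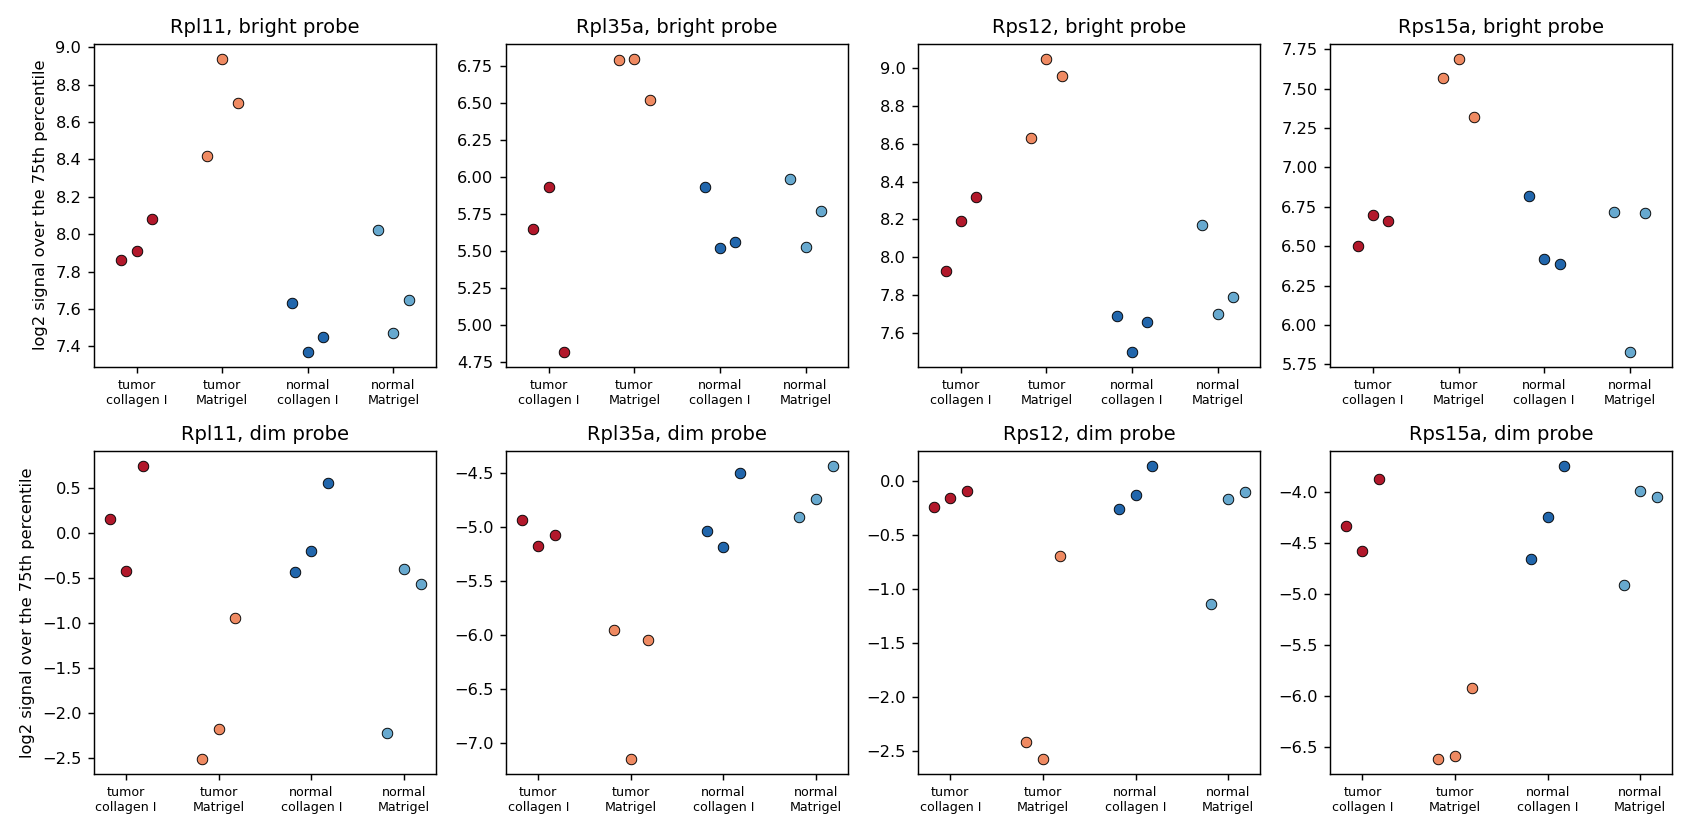
Log2 signal over the 75th percentile on the 12 arrays for the bright probe (top) and a dim probe (bottom) of Rpl11, Rpl35a, Rps12 and Rps15a, with 3 arrays per group. In tumor Matrigel each bright probe lies above all other arrays, Rpl11 at 8.42 to 8.94. The dim probes lie low there, Rpl11 at -2.51 to -0.95, with Rpl11 and Rps12 overlapping normal Matrigel mouse A.

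Rps27l, a p53 target that resembles Rps27, was higher in tumor than in normal organoids in Matrigel on the 75th percentile scale, with 7.02, 7.52 and 6.79 against 6.19, 5.73 and 5.92. The difference was 1.17 ± 0.25 (adjusted p = 0.00325), beside 1.08 ± 0.2 (adjusted p = 0.00171) for Rps27, and on the authors' values 0.11 ± 0.17 (adjusted p = 0.6) beside 0.07 ± 0.13 (adjusted p = 0.663). Rpl3l, known as the muscle form of Rpl3, was not well above background on any array, while Rpl3 itself gave 0.77 ± 0.16 (adjusted p = 0.00237) in the same comparison. Rpl39l, known as the testis form of Rpl39, is on the array under the name 4930517K11Rik and so is outside the rule. Of its 2 probes, 1 was well above background on all 6 normal arrays and on 0 of 6 tumor arrays. It was at least 2.65-fold lower in tumor than in normal Matrigel and at least 7.35-fold lower in tumor than in normal collagen, given as a description with no test, since the probe passed the filter only through the normal groups. Rpl39, beside it, gave 0.93 ± 0.22 (adjusted p = 0.00533) in Matrigel and 0.15 ± 0.22 (adjusted p = 0.736) in collagen I. Rps4x, the X-linked Rps4 gene, gave 0.82 ± 0.17 (adjusted p = 0.00276) in Matrigel, and -0.18 ± 0.14 (adjusted p = 0.298) on the authors' values.

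Besides those of Rpl39l, 4 probes outside the rule carry ribosomal protein genes by their accession. The 2 named Arbp, an older name of Rplp0, gave -0.68 ± 0.22 (adjusted p = 0.0393) and -1.1 ± 0.19 (adjusted p = 0.00368) between the gels in tumor organoids. The 2 probes of Rpl34 gave -0.89 ± 0.19 (adjusted p = 0.00734) and -0.77 ± 0.16 (adjusted p = 0.00757). None of the 4 passed on the authors' values, where the Arbp probes gave 0.08 and -0.3 (adjusted p = 0.714 and 0.137), while the Rplp0 probe named by the rule was called there. The 3 probes of this gene thus do not agree on that scale. A list of further ribosomal protein genes and their relatives that the rule does not match had 8 genes on the array, of which 4 were called lower and 0 higher between the gels in tumor organoids, with a median of -0.63. By the authors' values 0 of the 8 were called, with a median of -0.05.

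Other genes of protein synthesis were followed by lists, to be read against the 12.1% of all genes called lower and 15.8% called higher between the gels in tumor organoids, and 8.08% and 13% on the authors' values. Elongation factors and their partners, several of whose mRNAs are also known for pyrimidine tracts, went with the members. The starts of these 11 genes were not examined. Of the 11, 8 were called lower in tumor collagen than in tumor Matrigel, with a median of -0.73. Eef2, which moves the ribosome along the mRNA, led (-1.48 ± 0.21, adjusted p = 0.00185). On the authors' values 0 of 11 were called, with a median of -0.14, and Eef2 gave -0.62 (adjusted p = 0.0672). Of 31 initiation factor genes 12 were called lower and 1 higher, and on the authors' values 3 and 3. Eif4b (-1.56 ± 0.18, adjusted p = 0.0012) and Eif3f (-1.49 ± 0.21, adjusted p = 0.00185) were called there too, at -1.15 (adjusted p = 0.00368) and -0.97 (adjusted p = 0.00906).

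Of 45 ribosome assembly genes 14 were called lower and 1 higher between the gels in tumor organoids, and 7 lower and 1 higher on the authors' values. Beside these and the counts below stand 12.1% of all genes called lower and 15.8% higher, and 8.08% and 13% on the authors' values. Tcof1, a nucleolar factor for ribosomal RNA transcription (-1.19 ± 0.18, adjusted p = 0.00258), Rrp12 (-1.13 ± 0.26, adjusted p = 0.0113) and Nop16 (-1.07 ± 0.19, adjusted p = 0.00376) led on the first scale. Of the 78 mitochondrial ribosomal protein genes 13 were called lower and 1 higher, with a median of -0.28, and on the authors' values 2 lower and 5 higher, with a median of -0.02. Fau, which makes a ribosomal protein fused to a ubiquitin-like sequence, gave -0.85 ± 0.2 (adjusted p = 0.0127), and -0.05 (adjusted p = 0.795) on the authors' values.

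Between tissues in Matrigel 25.7% of all genes were called higher and 25.9% lower, and 22.7% and 25.3% on the authors' values. The same lists gave 9 of 11 elongation genes called higher in tumor organoids and 0 lower, 14 and 4 of 31 initiation genes, 18 and 3 of 45 assembly genes, and 37 and 2 of 78 mitochondrial ribosomal protein genes. By the authors' values these were 0 and 1, 5 and 9, 10 and 6, and 19 and 8. Among 20 regulators 8 were called higher and 4 lower, and 6 and 6 on the authors' values. Eif4ebp1, the translation repressor that mTOR switches off, was higher on both scales (2.12 ± 0.2, adjusted p = 5.09e-05, and 1.37, adjusted p = 0.000258). Gabpa, which binds the ETS motif above, was lower on both (-1.74 ± 0.19, adjusted p = 0.000106, and -1.59, adjusted p = 0.000157). Of 11 genes of the p53 response 9 were called higher and 0 lower on the 75th percentile scale and 8 and 0 on the authors' values, with medians of 1.24 and 0.95, led by Cdkn1a (3.18 ± 0.31, adjusted p = 5.52e-05).

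All 12 epithelial markers were well above background on every array of every group. The counts below stand beside 25.7% of all genes called higher and 25.9% lower by tissue in Matrigel (22.7% and 25.3% on the authors' values). Between the gels in tumor organoids 15.8% were called higher and 12.1% lower (13% and 8.08% on the authors' values). Of the markers of other cell types, in Matrigel 9 of 9 fibroblast and 5 of 6 endothelial markers were called lower in tumor organoids, on both scales, and the 9 fibroblast markers summed to -21.05 to -17.86 in tumor and -0.83 to 20.98 in normal organoids on the 75th percentile scale. The 6 endothelial markers summed to -27.26 to -23.05 in tumor and -5.84 to -4.33 in normal organoids, with Tek not well above background on any tumor Matrigel array. Between the gels in tumor organoids 1 of 9 fibroblast markers was called higher and 1 of 6 endothelial markers lower, and 0 and 3 on the authors' values. Of 8 leukocyte markers 1 was called higher and 1 lower in tumor Matrigel than in normal Matrigel, 0 and 2 of 4 adipocyte markers were, and 0 and 0 of 2 erythroid markers. By the authors' values these were 2 and 1, 0 and 1, and 1 and 0. The part of other cell types in the members' differences was not tested.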

How the data were processed

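Cy3-labelled RNA was read on 14 Agilent 1-colour 44K arrays of 13 samples. The deposited intensities are Agilent's processed signals, background-subtracted and detrended, with 2 scan gains combined, per the file headers (Feature Extraction 9.5.1.1, array build mm7), while the submitters' processing notes name version 9.1. The authors' deposited log2 values state no centring, and normal Matrigel B averages 2 arrays there. Each column correlated at 0.992 or more with its array's log2 signal. Here the 75th percentile of each array was subtracted from its log2 intensities, leaving out control spots and spots marked as outliers. A probe had to be well above background on every array of 1 group, and the brightest probe under a gene's name stood for it. The 2 Arbp probes, brighter than the Rplp0 probe, were kept apart from it by name. The 12 arrays of batch 2 were fitted with limma 3.58.1 (R 4.3.3), 1 term per group, 8 residual degrees of freedom, Benjamini-Hochberg over all genes, threshold 0.05. The number of arrays limits the precision.

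Members and lists were chosen with earlier results of these data known. Named were up to 5 called members per direction with the largest change (else the 3 lowest p), the stalk genes, Rpsa, Rps27a, paralogs, genes with opposed probes, and up to 3 called genes of a list. Genes called on the authors' values were named after their values were seen. Results of 2 genes that this rule would name are not reported here. Names came from RefSeq of GRCm38.p6 for 55.7% of probes. Mouse letters pair the gels by the labels: same-mouse deviations correlated at -0.0583, 0.323 and 0.419 (tumor A, B, C) and 0.24 and -0.243 (normal A, B). The fit was tested on simulated data. Figures used matplotlib 3.10.9.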

Additional observations from a re-analysis of the deposited data

Results flagged for a closer look

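The gel effect differed between the tissues by a test of the difference itself for 4 members on the 75th percentile scale, tumor minus normal: Rpl36 (-1.26 ± 0.28, adjusted p = 0.0443), Rplp0 (-1.14 ± 0.25, adjusted p = 0.0469), Rpl28 (-1.07 ± 0.24, adjusted p = 0.0472) and Rpl10 (-1.01 ± 0.23, adjusted p = 0.0494), by limma. On that scale 1.3% of all genes were called lower, and none of the 4 was called on the authors' values. The 2 Rplp0 probes outside the rule, named Arbp, were not called on the 75th percentile scale (adjusted p = 0.553 and 0.0816). Groups of 3 arrays were too small to look for outlying samples.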

How the results depend on the processing

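Counts are members called, a percentage is the share of all genes called in the same direction, and medians are relative to all genes. For collagen I against Matrigel in tumor organoids (73 lower, 12.1%, median -0.86), quantile normalization left 10 (9.43%, -0.16) and quantile after normexp 12 (10.1%, -0.15). Normexp left 24 (4.17%, -0.31), the authors' values 6 (8.08%, -0.1), no scaling 0 and spike-in scaling 64 higher (88.7%). Without low-gain probes 21 members remained, 5 lower (10.5%) and 3 higher (16.4%), with a median of -0.06. A fixed slide term left 12 (3.88%) and the fit of only the 2 groups 46 (4.01%). For tumor against normal in Matrigel (72 higher, 25.7%, 0.95), the same settings gave 4 (23.4%, 0.05), 8 (22.9%, 0.06), a median of 0.24 with 60 called (38.6%), 2 (22.7%, 0.02), 3 lower (53.6%) and 72 lower (86.3%). Without low-gain probes 4 were called in each direction (23.5% higher, 27% lower, median 0.03). No filter on dim probes gave a median of 0.65 and the slide term 1.18. For tumor against normal in collagen I (0 called, 0.2), quantile gave 1 lower (5.15%, -0.1), quantile after normexp 1 lower (5.15%, -0.09) and the authors' values 2 lower (4.94%, -0.12). No scaling gave 1 lower (8.26%), normexp a median of 0, low-gain probes left out -0.08, single probes 1 lower (4.65%) and array weights 1 higher (6.27%).

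For the difference of the gel effects (4 lower, 1.3%, -0.79), quantile gave 0 (-0.18), quantile after normexp 0 (-0.16), normexp 0 (-0.25), the authors' values 0 (-0.18), no scaling 0, low-gain probes left out 0 (-0.02) and no filter 0. Spike-in scaling gave 8 higher, where 57.3% of all genes were. Probes above background on all 12 arrays gave 8 lower (2.04%) and single probes 8 lower (1.26%) and 1 higher (1.66%). Batch 1 averaged in gave 17 lower (4.81%), variance trend 21 lower (3.08%) and array weights 43 lower (6.93%). Mouse pairs the gels: as a fixed replicate block it gave 0 and as a random one 32 (4.38%), and slide gave 0 and 27 (4.11%). In the tumor gel comparison the mouse block gave 65 (9.01%) and 74 (15.7%). No scaling, low-gain probes left out and quantile after normexp were chosen after seeing the data.

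Leaving out 1 array gave 53 to 73 calls (medians -0.97 to -0.79) for the gels in tumor organoids, 0 to 0 (-0.22 to 0.04) in normal organoids, 70 to 73 (0.82 to 1.07) between tissues in Matrigel, 0 to 0 (0.1 to 0.31) in collagen I, and 0 to 35 (-0.93 to -0.66) for the difference, with 35 without normal Matrigel A, 11 without tumor Matrigel A, 1 without tumor Matrigel C and 0 without any other.

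Named genes changed sign as follows. A large shift of the all-gene median under a setting, as with spike-in scaling, no scaling or normexp, was first taken off. The list thus leaves out the sign changes of fitted values with spike-in scaling described above. Between the gels in tumor organoids these were Rpl11 (0.1), Rplp1 (0.08), Rplp2 (0.04), Rps12 (0.11) and Rps27a (0.09) with quantile normalization. After normexp it gave Rpl11 0.06, Rplp1 0.08, Rplp2 0.01, Rps12 0.12, Rps27a 0.09 and Rps4x 0.04. The authors' values gave Rpl11 0.08, Rplp1 0.05, Rps12 0.06, Rps27a 0.19 and Rps4x 0.06. Without low-gain probes they were Rpl11 2.03, Rps12 1.73, Rps13 1.42, Rps15a 2.12 and Rps6 0.97, and as the mean over probes Rpl11 0.65, Rps12 0.49, Rps13 0.23 and Rps15a 0.61. Between tissues in Matrigel, quantile normalization gave Rpl11 -0.03, Rpl3 -0.14, Rplp1 -0.16, Rps12 -0.08, Rps27 -0.01, Rps27a -0.12 and Rps4x -0.11. After normexp it gave Rpl11 -0.1, Rpl3 -0.15, Rpl39 -0.04, Rplp1 -0.17, Rplp2 -0.05, Rps12 -0.14, Rps27a -0.11 and Rps4x -0.15. With normexp alone Rpl31 gave -0.07 once the move of the all-gene median, from 0.08 on the first scale to 0.45, was taken off. The fitted Rpl31 difference itself stayed positive. The authors' values gave Rpl10 -0.08, Rpl3 -0.22, Rpl39 -0.18, Rplp1 -0.11, Rps15a -0.14, Rps27a -0.25, Rps4x -0.18 and Rps6 -0.04. Without low-gain probes they were Rpl11 -0.82, Rps12 -1.42, Rps13 -1.3, Rps15a -2.06 and Rps6 -1.64, and as the mean over probes Rpl35a -0.01, Rps12 -0.21, Rps13 -0.11, Rps15a -0.48 and Rps6 -0.33. Leaving out low-gain probes and averaging probes replace the bright probe by others of the gene. For the other settings the cause was not tested.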
